A study of Mus musculus with 5 samples.

Results

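The intervals described here showed T>C conversions although no label had been given. SLAMseq reads newly made RNA from T positions that are sequenced as C, and its tables give for each annotated 3′ end interval how many T positions were covered by reads, how many of these were converted, and the ratio of both, the T>C conversion rate. The members were the distinct intervals that reached 300 covered T positions in each of both unlabeled control libraries and a mean T>C rate of these libraries of 0.0025 or more, so they were chosen by the unlabeled rates. The tables held 40428 distinct intervals, 12450 passed the coverage, and 1015 of these (8.15%) were members. They carried 689 gene names of the 7600 with a covered interval, and the other 11435 covered intervals served for comparison.

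Cardiac fibroblasts (CF) were isolated from hearts of adult healthy male C57Bl/6J wildtype mice and grown to confluency. In the labeled group, 3 libraries came from CF kept for 12 h in medium with 0.1 mM 4-thiouridine (S4U). In the unlabeled group, 2 libraries came from CF incubated for 12 h in parallel without S4U. RNA of both groups was alkylated with iodoacetamide and made into 3′ end libraries with unique molecular identifiers, and p-values measure the spread between these libraries. The study counted its SLAMseq replicates as CF preparations, and neither it nor the labels say which preparation each unlabeled library came from.

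S4U is a uridine analog that cells build into RNA. Alkylation of its thiol group makes reverse transcriptase pair it with G, so that the position is read as C. An unlabeled library holds no S4U and gives the level of T>C calls on which the labeled signal stands. A 3′ end library covers only the last stretch of a transcript before its poly(A) tail, and an interval here is a piece of annotated 3′ untranslated region (3′ UTR), of which a gene can have several that overlap.

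The sequences of some intervals are shown because part of their unlabeled conversions lay on 1 or 2 T positions at the 3′ end, or because the whole interval is very short. They were read from GRCm39, 5′ to 3′ on the strand of the gene. For *Uso1*, *Acot9* and *Mettl7a1* the last 30 bases of the longest member interval are given, and capitals mark the bases beyond the next shorter annotated 3′ end. *Slfn5*, which was not a member, is shown the same way for comparison. For *Zswim8* the whole member interval is given and capitals mark its T positions.

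Uso1 (chr5:92350630-92350659, plus strand): ataataaaaatagatattatgttcaCTTAA
Acot9 (chrX:154080621-154080650, plus strand): taaacaataaaaccttttacagtaCTACGA
Mettl7a1 (chr15:100212207-100212236, plus strand): aaatgaaaataaatggtttctatATATGCC
Slfn5 (chr11:82855652-82855681, plus strand): aataaaggacataagatattgcaacTAAAA
Zswim8 (chr14:20773671-20773687, plus strand): acTccTTTTTTacTcTa

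The libraries differed in depth and in their own background. Between 729040 and 2771513 reads and between 15282090 and 53609626 covered T positions were counted per library, with overlapping intervals counted more than once. The T>C rate over all intervals was 0.0353, 0.0358 and 0.0356 in labeled replicates 1, 2 and 3. It was 0.00111 in unlabeled replicate 1 and 0.000652 in unlabeled replicate 2. Fibroblast markers were read in every library for 10 of 10 genes and summed to 39233–42853 CPM relative to counted reads in the labeled and 31898–35538 in the unlabeled libraries. Macrophage markers summed to 106–209 and endothelial markers to 145–265. Cardiomyocyte markers summed to 2.17–9.03, with 1 of 10 genes read in every library and *Myl2*, *Myl3* and *Ryr2* at 0.

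Members held a large share of the conversions that the unlabeled libraries contained, and no such share of those in the labeled libraries. In unlabeled replicate 1, 26.7% of the conversions lay in members on 6.11% of the covered T positions. In unlabeled replicate 2, 31.8% lay in members on 6.36%. In the labeled libraries, 6.70%, 6.51% and 6.44% of the conversions lay in members on 6.34%, 6.61% and 6.51% of the covered T positions. On 1 interval per gene, which removes the repeated counting, the unlabeled shares were 27.9% and 33.5% on 6.28% and 6.63% of the covered T positions. Without the members, the unlabeled rates over all intervals were 0.000868 and 0.000474. The unlabeled values chose the members, so these shares describe the set and were not tested.

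The mean unlabeled rate of the members reached 0.0259, with a median of 0.00334. It was at least 0.005 in 151 members and at least 0.01 in 11. The median in the other covered intervals was 0.000408, and 3309 of them had no conversion in either unlabeled library. By library, the median rate of members was 0.00428 in unlabeled replicate 1 and 0.00260 in unlabeled replicate 2, against 0.000463 and 0 in the other intervals. Many members rested on few conversions. The median was 9 over both unlabeled libraries, 251 members had 5 or fewer, 500 had at least 10 and 25 had at least 100. At the lowest coverage allowed, 1.5 conversions over both libraries reach the threshold.

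**Figure D1:**
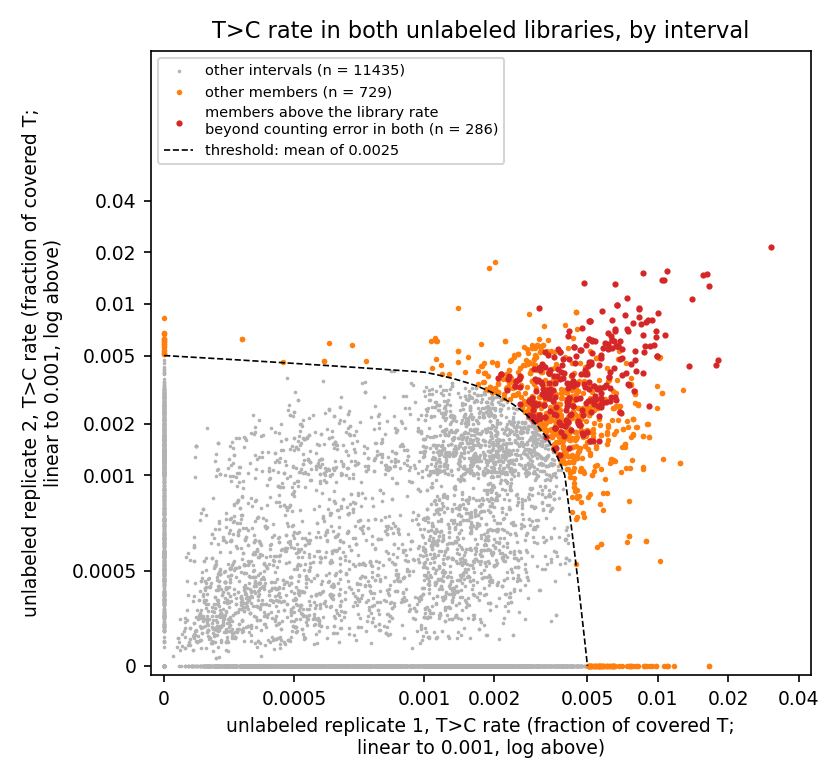
T>C conversion rate of each covered interval in unlabeled replicate 1 (x axis) and unlabeled replicate 2 (y axis), as a fraction of covered T positions on axes that are linear to 0.001 and logarithmic above. Grey points are the 11435 other intervals, orange and red points are members, red ones being the 286 whose exact lower bound lay above the library's rate in both, and the dashed line is the threshold of 0.0025 on the mean; 86 members lie at 0 in replicate 2 and 19 at 0 in replicate 1.

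Agreement of the controls was partial. The threshold was reached in both unlabeled libraries by 421 members, in replicate 1 alone by 481 and in replicate 2 alone by 113. The rate was higher in replicate 1 in 741 members, higher in replicate 2 in 273 and equal in 1. The exact 95% lower bound of the rate (Clopper-Pearson, counting error only) lay above the library's rate over all intervals in both unlabeled libraries for 286 members of 207 genes. By the same criterion 2.92% of all covered intervals were called, and the 78 called outside the members had mean rates below the threshold. This criterion uses the values of the rule and is a description.

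Depth set how many members stood beyond counting error. Between 300 and 1000 covered T positions, 611 of 6113 intervals were members and 13.4% of these members passed the criterion in both libraries. From 1000 to 3000 covered T positions, 6.62% were members and 37.6% of them passed. From 3000 to 10000, 5.81% were members and 74.7% passed. At 10000 or more, 6.11% were members and 27 of 27 passed. Of the other intervals in these classes, 0, 3, 35 and 40 passed, so that in the deepest class more other intervals than members did. The Spearman correlation of the unlabeled rates over all intervals of these classes was 0.323 (n = 6113), 0.460 (n = 4261), 0.603 (n = 1634) and 0.800 (n = 442). These points share both libraries, and overlapping intervals share reads, so no p is given.

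A choice by one control could be read in the other. Of 1716 covered intervals at 0.0025 or more in unlabeled replicate 1, 365 (21.3%) had a lower bound above the library rate in unlabeled replicate 2, where 4.8% of all covered intervals did and 2.16% of those not chosen. Their median rate was 0.00359 in the library that chose them and 0.00132 in the other one, and 29.8% had no conversion there. Of 742 intervals chosen in unlabeled replicate 2, 308 (41.5%) were called in unlabeled replicate 1, against a background of 10.5% and 8.56% of those not chosen. Their median rate was 0.00334 in the choosing library and 0.00292 in the other. The share called was several times the background in both directions, and most chosen intervals were not called. No interval is given for these shares, since overlapping intervals share reads. At a minimum of 1000 covered T positions the shares were 34.1% and 66.1%, against 6.39% and 13.2% of all intervals as deeply covered.

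The highest unlabeled rate was that of *Alyref2*, a paralog of an mRNA export adaptor gene, on chromosome 1 from 171331882 to 171332318. The rate was 0.0304 (exact 95% interval 0.0192–0.0457) in unlabeled replicate 1 and 0.0214 (0.00928–0.0417) in replicate 2. It was 0.0633, 0.0622 and 0.0290 in the labeled libraries, so labeled replicate 3 lay below unlabeled replicate 1. Only 39 and 19 reads were counted without S4U, and 56.4% and 42.1% of these carried a conversion.

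*Nfix*, which encodes a transcription factor of the nuclear factor I family, had 7 covered intervals, and the highest rate was in the shortest. This interval of 36 bases with 7 T positions lies on chromosome 8 from 85435256 to 85435291, on the minus strand. Its rate was 0.0163 and 0.0149 without S4U and 0.0553, 0.0579 and 0.0486 with it, and the groups did not overlap. It held 49 and 27 conversions in unlabeled replicates 1 and 2, whereas the overlapping interval of 3340 bases, which contains it, held 58 and 28 in all. The unlabeled conversions of *Nfix* therefore lay mostly on these 7 T positions, and the rates of its other covered intervals ran from 0.00999 and 0.00881 at 51 bases to 0.00378 and 0.00205 at 3966 bases.

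The *Zswim8* interval, shown above, is only 17 bases long and has 9 T positions. *Zswim8* encodes a substrate receptor of an ubiquitin ligase known from the decay of microRNAs. Its unlabeled rates were 0.0156 and 0.0149, from 36 and 6 conversions, and its labeled rates were 0.0481, 0.0308 and 0.0429. In *Map2k2*, the gene of the kinase MEK2, the interval of 616 bases had 0.0110 and 0.0157 without S4U and 0.0312, 0.0335 and 0.0310 with it. The interval of 967 bases starts at the same base and had the same 23 and 8 unlabeled conversions, so both are 1 observation.

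*Gm4737*, a predicted gene model, had 0.0165 and 0.0127 without S4U and 0.0414, 0.0451 and 0.0444 with it, and the last 100 bases of its interval aligned to 3 other genome positions at 90% identity or more. *Rps27rt*, a retrotransposed copy of a ribosomal protein gene with 2 such positions, had 0.0140 and 0.0107 against 0.0211, 0.0192 and 0.0288. Reads can be split between such copies. *Prpf19*, a splicing factor, had 0.0104 and 0.0137 against 0.0363, 0.0371 and 0.0383. *Emsy*, a chromatin protein, had 0.00865 and 0.0152 against 0.0456, 0.0267 and 0.0517.

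In the remaining intervals of the 12 highest, the controls lay far apart. *Gusb*, which encodes the lysosomal beta-glucuronidase, had a rate of 0.0181 in unlabeled replicate 1 and 0.00471 in replicate 2 on its interval of 507 bases. Its labeled rates were 0.0305, 0.0252 and 0.0177, and labeled replicate 3 lay below unlabeled replicate 1. *Orc3*, a subunit of the origin recognition complex, had the opposite order, 0.00201 (0.000414–0.00586) in replicate 1 and 0.0176 (0.00712–0.0360) in replicate 2, from 3 and 7 conversions.

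**Figure D2:**
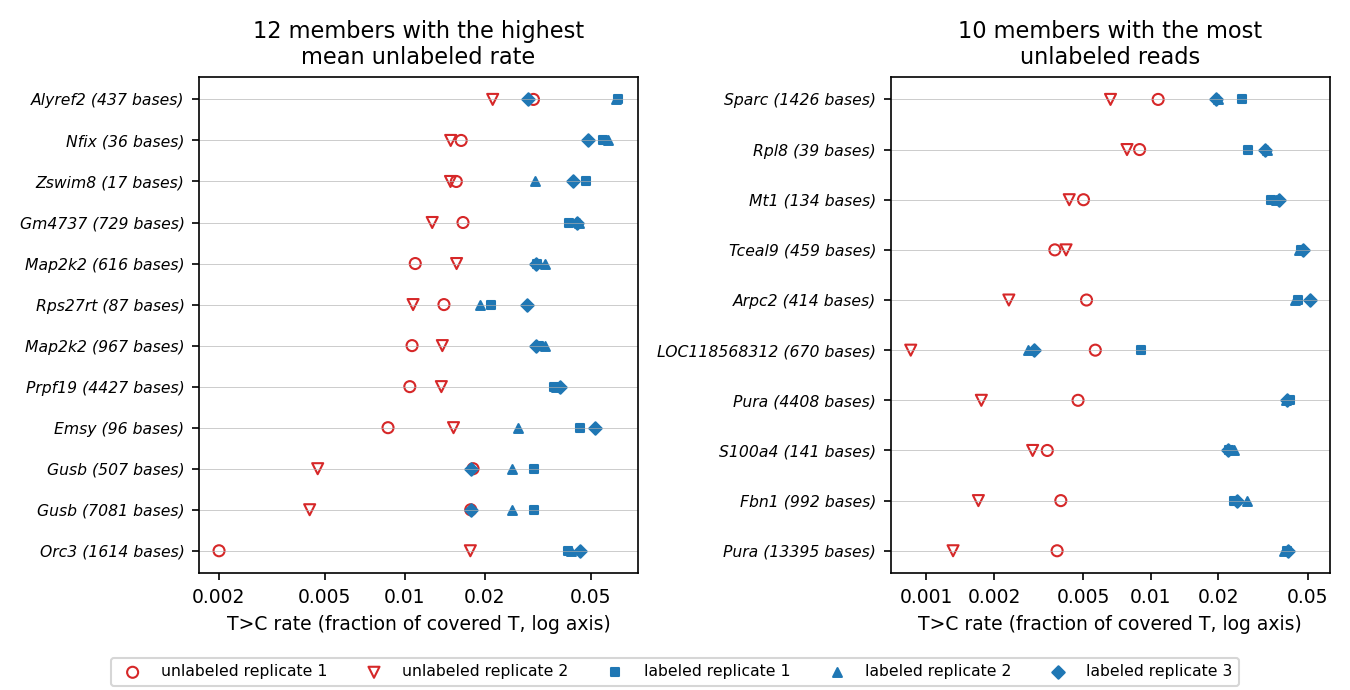
T>C conversion rate (fraction of covered T positions, log axis) in each of the 5 libraries for the 12 members with the highest mean unlabeled rate (left) and the 10 with the most unlabeled reads (right), 1 row per interval with its length. Open red symbols are unlabeled and filled blue symbols labeled libraries; in most rows the blue symbols stand to the right of the red ones, and they overlap for *Alyref2*, *Gusb* and *LOC118568312*.

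The member with the most reads was *Sparc*, which encodes osteonectin, a collagen-binding protein of the matrix. The interval has 1426 bases on chromosome 11 from 55284985 to 55286410, minus strand, and is not contained in 1 annotated exon of the gene. Its rate was 0.0108 (0.0103–0.0112) in unlabeled replicate 1 and 0.00661 (0.00629–0.00694) in replicate 2, from 2265 and 1583 conversions. A conversion was carried by 16.1% and 11.1% of its reads. The labeled rates were 0.0255, 0.0199 and 0.0195, so that the mean unlabeled rate was 40.2% of the mean labeled rate, with no overlap of the groups. No other genome position aligned to its last 100 bases.

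The other deeply read members had lower mean unlabeled rates. *Rpl8*, a protein of the large ribosomal subunit, had 0.00890 and 0.00782 on an interval of 39 bases with 11 T positions, and 0.0271, 0.0328 and 0.0322 with S4U. *Mt1*, a metal-binding metallothionein, had 0.00501 and 0.00433 against 0.0343, 0.0361 and 0.0372. *Tceal9*, of the TCEAL family, had 0.00373 and 0.00419 against 0.0468, 0.0457 and 0.0476. In these 3 members both controls lay close together and far below the labeled libraries.

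*S100a4*, a calcium-binding protein known from fibroblasts, had 0.00345 and 0.00297 against 0.0224, 0.0233 and 0.0221. *Arpc2*, a subunit of the actin-nucleating Arp2/3 complex, had 0.00517 and 0.00233 against 0.0451, 0.0436 and 0.0510. *Pura*, a nucleic acid binding protein, had 0.00473 and 0.00176 on its interval of 4408 bases against 0.0417, 0.0399 and 0.0404. The last 100 bases of this interval aligned to 1 other genome position. In *Arpc2* and *Pura* the rate of replicate 1 was more than 2 times that of replicate 2.

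*Fbn1*, the gene of the microfibril protein fibrillin-1, had 2 covered intervals that share their 5′ end. The longer one, with 992 bases on chromosome 2 from 125142514 to 125143505, had 96 and 37 unlabeled conversions and rates of 0.00397 and 0.00170. The shorter one of 645 bases had none among 12542 and 6126 covered T positions. All of the unlabeled conversions of *Fbn1* thus lay in the bases toward the 3′ end that only the longer interval holds.

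By the ratio of the rates, the members closest between the controls, among those with at least 10 conversions, were the transporter gene *Flvcr1* (0.00781 and 0.00778), the pseudogene *Ptges3-ps* (0.00594 and 0.00595), *Stbd1* of a glycogen-binding protein (0.00258 and 0.00259), *Iah1* (0.00343 and 0.00347) and *Klhl22*, an adaptor of a ubiquitin ligase (0.00398 and 0.00393). By the same ratio, which a count of 0 makes infinite, those furthest apart were members with no conversion in replicate 2. These are tied, and the first, with chromosome names sorted as text, were *Trps1*, *Ptprs* and *Pfdn1*. *Trps1* had 23 conversions in replicate 1 on 3952 covered T positions and 0 in replicate 2 on 2002. *Pfdn1* had 13 on 2555 and 0 on 752, and *Ptprs* had 10 on 1973 and 0 on 766. *Trps1* encodes a GATA-type repressor, *Pfdn1* a prefoldin subunit and *Ptprs* a receptor phosphatase.

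Members just inside the threshold were *Uso1* (0.00356 and 0.00145), the ATPase gene *Atp13a1* (0.00501 and 0) and *Glrx* of a glutaredoxin (0.00196 and 0.00305). Just outside it were *Ccnl1* (0.00377 and 0.00123), *Cdc123* (0.00294 and 0.00206) and *Mettl21a* (0.00341 and 0.00158). The values on both sides of the threshold were alike.

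Members were short intervals more often than the other covered intervals. Their median length was 1059 bases, against 1359. Of the 200 covered intervals of up to 100 bases, 41 (20.5%) were members. Over 100 and up to 300 bases, 131 of 1191 were members. The share was 8.64% up to 1000 bases, 7.28% up to 3000 and 6.85% above. Short intervals have few covered T positions per read, and the median over both unlabeled libraries was 18.8 per read in members and 21.3 in the others. The part of coverage in the shares by length was not tested.

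Other properties of the sequence differed little. T made up a median of 29.0% of the bases in members and 30.2% in the other intervals, and GC 44.0% and 42.8%. The poly(A) signal letters AATAAA, searched on the strand of the gene, were found in the last 60 bases of 66.4% of the members and 67.9% of the others. At 90% identity or more, the last 100 bases aligned to another genome position in 10.3% of the members and 12.6% of the others, and the best aligned copy had C at a T of the interval in 2.86% and 4.29%. Among the 286 members beyond counting error in both controls, 14.0% had another genome position and 4.20% a best aligned copy with C at a T. A gene on the opposite strand overlapped 30.6% of the members and 27.7% of the others.

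Near annotated 3′ ends, the unlabeled rate went with the length of the segment between neighbouring ends. Where a gene had several annotated 3′ ends, the counts of the shorter interval were subtracted from those of the longer one, which gave the counts of the segment in between. Over all genes and not only members, segments of 1 to 5 bases at the 3′ side had an unlabeled rate of 0.0196 in replicate 1 (280 conversions) and 0.0112 in replicate 2 (55 conversions). The rate was 0.0108 and 0.00629 in segments of 6 to 10 bases, 0.00527 and 0.00307 from 11 to 30 and 0.00174 and 0.000965 from 31 to 100. It was 0.00103 and 0.000705 in segments of up to 300 bases and 0.00144 and 0.000759 in those of up to 1000. The exact 95% intervals of neighbours among the first 4 classes did not overlap in replicate 1, and in replicate 2 those of the 2 shortest classes overlapped.

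The labeled rates showed no such gradient and lay between 0.0305 and 0.0393 in all these 3′ classes. At the 5′ side of the intervals, segments of 31 to 100 bases had unlabeled rates of 0.000169 and 0.000331 and the longer ones of up to 300 bases 0.000212 and 0.000181. Those of up to 1000 bases had 0.000829 and 0.000377. Leaving out the 10 segments with the most conversions removed 2 from the class of 1 to 5 bases, where 182 conversions were left in replicate 1 and the rates were 0.0139 and 0.00891. It removed no segment from the classes of 6 to 100 bases. In segments of intervals outside the members they were 0.0171 and 0.00937, so the gradient was not confined to the members.

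**Figure D3:**
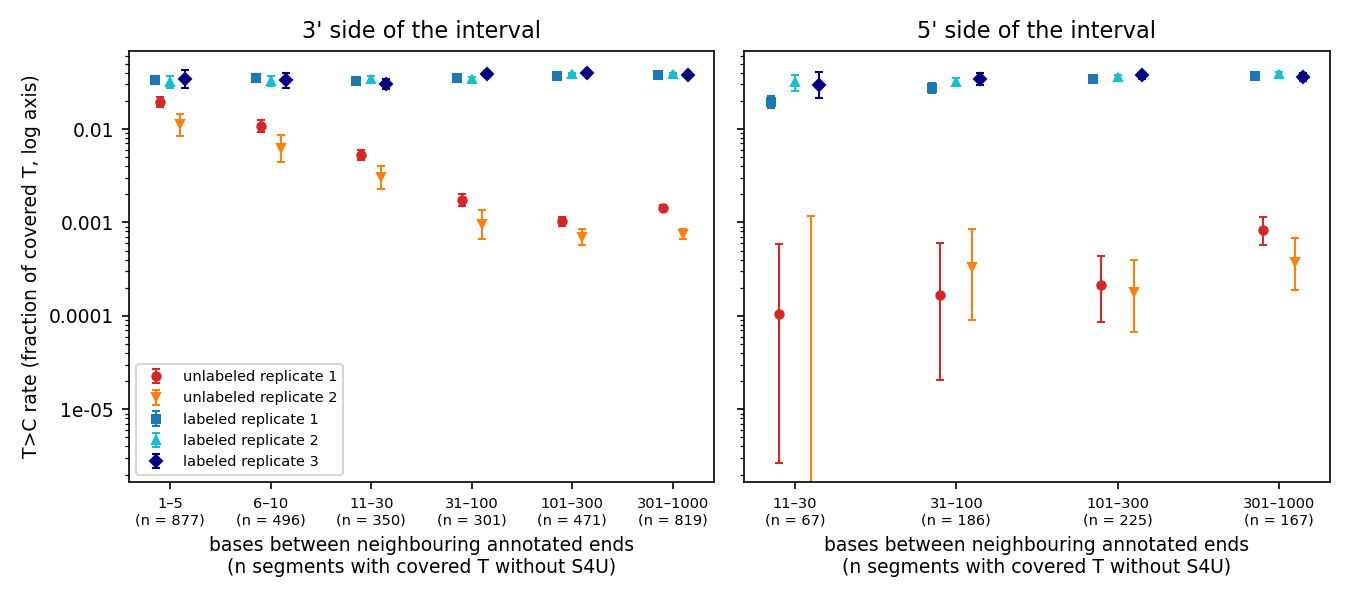
T>C conversion rate (fraction of covered T positions, log axis) of the segments between neighbouring annotated ends, by segment length in bases, at the 3′ side (left) and the 5′ side (right), with exact 95% intervals for counting error and 1 symbol per library. The unlabeled rate falls from 0.0196 and 0.0112 in the shortest 3′ segments to about the library rate, and the labeled rates on the 3′ side stay between 0.0305 and 0.0393; classes of up to 10 bases at the 5′ side had at most 171 covered T positions per unlabeled library and are not drawn.

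In *Uso1*, whose product tethers vesicles to the Golgi, the last 5 bases printed in capitals above hold 2 T positions and 47 of the 50 unlabeled conversions of replicate 1 and 3 of the 4 of replicate 2. Their rate was 0.0779 and 0.0448 without S4U and 0.0575, 0.0583 and 0.0732 with it, and the groups overlapped there. The remaining bases of the interval had 0.000223 and 0.000371. In *Acot9*, a mitochondrial acyl-CoA thioesterase, the last 6 bases with 1 T position held 9 of 21 and 1 of 3 unlabeled conversions. In *Mettl7a1*, a methyltransferase-like gene, the last 7 bases with 2 T positions held 9 of 23 and 1 of 5. In *Slfn5*, outside the members, the last 5 bases with 1 T position held 51 of 61 and 10 of 13, at rates of 0.0932 and 0.0775, and the rate of the whole interval of 3151 bases stayed below the threshold.

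Without S4U, conversions were about as many as the reads that carried one. Over the 500 members with at least 10 unlabeled conversions, the conversions per read with a conversion were 0.998 in the pooled unlabeled libraries and 1.47 in the labeled ones. Values below 1 can arise where a read carries its conversion outside the interval. A value near 1 is therefore no count of the reads with more than 1 conversion. In the 1286 other intervals with as many conversions the values were 0.974 and 1.57. The median over intervals was 1.00 without S4U in both sets, and with S4U it was 1.46 in members and 1.56 in the others. In *Sparc* the value was 1.00 without S4U and 1.32 with it. In *Tceal9* it was 1.00 and 1.75, and in *Thbs1* 0.982 and 2.01. A low rate by itself leaves few reads with more than 1 conversion, and its part in these values was not tested.

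Gene groups were compared by their share of member genes, against 9.07% of all covered genes. No set test was run. The lists are selections and leave out other genes of the same function, among them the members *Matn4*, *Arsb* and *Gpnmb*. Among 42 covered genes of the list of matrix and matricellular proteins, 4 were member genes, *Fbn1*, *Serpinf1*, *Sparc* and *Thbs1*. Thrombospondin-1, the product of *Thbs1*, regulates matrix and growth factor activation, and its interval had 0.00360 and 0.00142 without S4U and 0.0524, 0.0531 and 0.0565 with it, among the highest labeled rates of the members. *Serpinf1*, which encodes the secreted factor PEDF, had 0.00702 and 0.00384 against only 0.0121, 0.0116 and 0.0108. Of 20 covered collagen genes only *Col6a2* was a member gene, with 2 conversions in replicate 1 and none in replicate 2. None of 22 covered genes of matrix turnover and none of 10 fibroblast markers had a member interval.

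Of 7 covered genes of the insulin-like growth factor system, 2 were member genes. The receptor gene *Igf1r* had 0.00311 and 0.00425 without S4U and 0.0415, 0.0475 and 0.0469 with it. The binding protein gene *Igfbp3* had 0.00430 and 0.000886 against 0.0284, 0.0379 and 0.0367. Of 30 covered contractile and cytoskeletal genes, 2 were member genes. *Tagln*, which encodes the actin-binding protein transgelin, had 0.0136 and 0.00433 against 0.0801, 0.0608 and 0.0529, the highest mean labeled rate among members that reached 1000 covered T positions in each library. *Cnn2*, a calponin, had 0.00514 and 0.00132 against 0.0380, 0.0346 and 0.0346.

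Genes of the translation and energy machinery were member genes at shares on both sides of the background. Of 47 covered cytosolic ribosomal protein genes, 2 were member genes (4.26%), *Rpl8* and *Rps21*, both with short intervals. *Rps21* had 0.00322 and 0.00318 against 0.0129, 0.0162 and 0.0196. Of 55 covered mitochondrial ribosomal protein genes, 8 were member genes (14.5%), and none of these 8 passed the criterion of counting error in both libraries. Of 70 covered respiratory chain genes, 7 were member genes.

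Of these, *Ndufa5*, which like the other genes named next encodes a subunit of complex I, had 0.00640 and 0.00806 without S4U and 0.0486, 0.0441 and 0.0431 with it. *Ndufv2* had 0.00311 and 0.00951 against 0.0463, 0.0387 and 0.0455. *Ndufa13*, on 2 overlapping short intervals, had 0.00694 and 0.00232 against 0.0208, 0.0214 and 0.0159 on the longer. *Ndufa1* had 0.00226 and 0.00314 against 0.0162, 0.0144 and 0.0138, and *Ndufa3* 0.00297 and 0.00502 against 0.0297, 0.0146 and 0.0266.

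Of 41 covered proteasome genes, 5 were member genes (12.2%). *Psme2b*, a copy of an activator subunit gene with 1 further genome position, had 0.00656 and 0.0131 against 0.0456, 0.0549 and 0.0444, and *Psmc4*, an ATPase subunit, had 0.00539 and 0.00289 against 0.0397, 0.0488 and 0.0655. Of 22 covered genes of the lysosomal list, 2 were member genes, *Gusb* and *Hexa*. *Hexa*, a hexosaminidase subunit, had 0.00393 and 0.00199 against 0.0124, 0.0123 and 0.0169. Of 159 covered zinc finger genes, 18 were member genes (11.3%), of which 1 passed the criterion of counting error in both libraries.

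None of 27 covered genes with many processed pseudogenes was a member gene. Of 9 covered genes of MHC class I and peptide loading, *H2-Q4* was a member gene. Its values were 0.00442 and 0.00229 against 0.0258, 0.0178 and 0.0237. The unlabeled values are uncertain, as they came from 14 conversions and from 1 conversion on 437 covered T positions. The last 100 bases of the interval aligned to 490 other positions, and the part of these in the values was not tested. Of 119 predicted genes and clone names, 12 were member genes (10.1%). *Gm15501* had 0.00906 and 0.00802 against 0.0219, 0.0214 and 0.0253, with 15 other positions aligned, and the best aligned of them had C at a T of the interval.

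Among the markers of other cells, *Kdr*, the endothelial receptor for VEGF, was a member gene with 0.00633 and 0.00287 against 0.0314, 0.0224 and 0.0118. It was the only member gene of 6 covered endothelial markers. In these libraries fewer cells of a type and less RNA per cell cannot be told apart.

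With S4U, the median rates of members were close to those of the other intervals. The median rate of members was 0.0390, 0.0390 and 0.0393 in labeled replicates 1, 2 and 3, and 0.0376, 0.0388 and 0.0385 in the other intervals. The difference was 0.00140, 0.000166 and 0.000775. The middle range of members, from 0.0322 to 0.0432 in labeled replicate 1, lay over that of the other intervals, from 0.0321 to 0.0422. Once the mean unlabeled rate was subtracted, the order turned. The labeled minus unlabeled rate had a median of 0.0355 in members and 0.0380 in the others, a difference that the choice of members enters.

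The unlabeled rate was a median of 8.91% of the labeled rate in members, with a range from 3.76% to 65.6% over the 1014 members with a labeled conversion. In the other intervals the median was 1.09%. The share was at least 25% in 41 members of 34 genes and at least 50% in 8 members. Among the other intervals, 20 had a share of at least 25%, and their highest share was 413%. The 5 members with the lowest labeled rates, among those that reached 1000 covered T positions in each library, had shares of 65.6%, 63.7%, 47.2%, 47.2% and 21.3%.

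**Figure D4:**
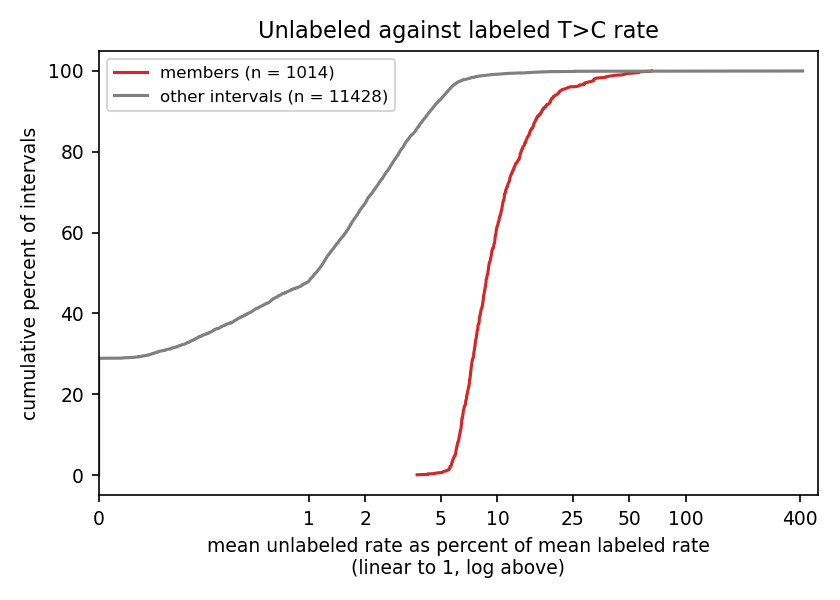
Cumulative percent of intervals (y axis) by the mean unlabeled rate as percent of the mean labeled rate (x axis, linear to 1 and logarithmic above) for 1014 members (red) and 11428 other intervals (grey) with a labeled conversion. The median is 8.91% in members and 1.09% in the other intervals, and few members pass 25%.

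*Gpnmb*, a transmembrane glycoprotein of lysosomes, had 0.00964 and 0.00573 without S4U and 0.0130, 0.0123 and 0.0110 with it, a share of 63.7% without overlap of the groups. *Ifi27l2a*, an interferon-induced gene, had 0.00508 and 0.00623 against 0.0122, 0.00843 and 0.00956. It was listed under 2 intervals with the same values. *Matn4*, the matrix protein matrilin-4, had 0.00722 and 0.00858 against 0.0104, 0.0133 and 0.0186. *Htra1*, a secreted serine protease, had 0.00480 and 0.00225 against 0.00801, 0.00767 and 0.00671, and its groups did not overlap.

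*Serpinf1*, *Sparc* and *Trf*, the transferrin gene, had shares of 47.2%, 40.2% and 39.3%. *LOC118568312*, a gene model on chromosome 17, had the highest share among the members with 65.6%. Its unlabeled rates were 0.00565 and 0.000851 and its labeled rates 0.00902, 0.00282 and 0.00303, with 6545 and 43494 covered T positions in the controls. The replicates 1 of both groups were the high ones, and its last 100 bases aligned to 2 other positions.

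In 994 members every labeled library lay above both unlabeled libraries, where 98.8% of all covered intervals did. Among the 21 exceptions, 6 named here had no conversion in labeled replicate 3. *Cox16*, a cytochrome oxidase assembly factor, had 43 and 14 conversions in labeled replicates 1 and 2 and 0 of 159 covered T positions in replicate 3. *Cplane1*, *Diaph3*, *Erap1*, *Slc9a9* and *Col6a2* also had 0 in labeled replicate 3, on 45, 4, 153, 35 and 218 covered T positions. *Arsb*, the lysosomal arylsulfatase B, had 0.00773 and 0.00122 without S4U and 0.0215, 0.0111 and 0.00526 with it.

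The test of labeled against unlabeled rates used the unlabeled values of the rule, so its counts are given only beside the background. The beta-binomial likelihood-ratio test (two-sided, unadjusted p below 0.05) called 1009 of 1015 members higher with S4U, where 94.6% of the 19240 intervals tested were called, and none was lower. Of the other intervals that passed the coverage of the rule, 11394 of 11432 were called. Among the members named here, *Col6a2*, *Cox16*, *Arsb* and *LOC118568312* were not called.

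The rule set a minimum of covered T positions, which come from reads, in the unlabeled libraries only, so the read counts of members are not independent of it and are given as a description. Fitted without the replicate number as a block, the quasi-likelihood test of edgeR for labeled against unlabeled libraries (adjusted p below 0.05, Benjamini-Hochberg) called 0 of 1015 members and 0 of all 16563 intervals tested (0%). At an unadjusted p below 0.05, 25 members were higher and 42 lower in the labeled libraries. Over all intervals tested, which were not chosen by unlabeled coverage, the shares were 2.83% and 2.95%. DESeq2 called 4 members and 22 intervals. The median log2 fold change, labeled against unlabeled, was -0.0086 in members and 0.028 over all intervals. The call of 0 changed when edgeR was fitted with the replicate number as a block. That fit called 61 members higher and 66 lower, and 947 and 948 of all intervals tested. The labels do not say whether a shared number marks a pair.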

How the data were processed

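SLAMseq libraries of CF, 3 labeled and 2 unlabeled by the submitters' labels, were analysed from 1 table per library. The authors extracted unique molecular identifiers with umi-tools, used SLAM-DUNK 0.4.3 to map reads to mm39, removed duplicates and deposited, per interval, unnormalized counts of reads, of reads with a conversion, of covered T positions and of conversions. The deposited conversion rate is a fraction, conversions divided by covered T positions. The deposited CPM was not used, and CPM relative to counted reads was computed on the interval of each gene with the most unlabeled reads.

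Each table has 97442 rows, and repeated rows were used once. T content matched GRCm39 for 40380 of 40380 intervals on its chromosomes, and coordinates are counted from 1. The last 100 bases were aligned to GRCm39 with BLAST+ 2.17.0 (word size 16, identity and aligned length of at least 90). Genes and exons came from GENCODE.

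The members, gene lists and tests were chosen with earlier results of these data known. Genes were named as the 12 highest mean unlabeled rates, the 10 most read, 3 on each side of the threshold, at most 12 with a labeled library not above both controls, the 5 most and 5 least different controls, list members with at least 10 conversions (at most 6 a list), and the 5 highest and 5 lowest labeled rates. Genes followed across several intervals, and the further ones with a high share of unlabeled rate, were chosen after their values were seen. A result for 1 item is not reported here.

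Tests were a likelihood-ratio test on a beta-binomial model with 1 overdispersion shared by both groups and edgeR 4.0.16 (TMM, filterByExpr), with DESeq2 1.42.0 and limma 3.58.1 as alternatives, under R 4.3.3, matplotlib 3.10.9, numba 0.67.0, pandas 2.3.3, scipy 1.17.1, numpy 2.4.6 and Python 3.11.15. They were tested on simulated data. Intervals cover counting error only. Alternatives were other thresholds of rate and coverage, other summaries, 1 interval per gene, other filters, the replicate number as a block and leaving out each library. Libraries of a group differed beyond sampling noise (chi-square per degree of freedom of read counts 2.04–16.6).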

Additional observations from a re-analysis of the deposited data

How the results depend on the processing

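The number of members followed the thresholds. It was 1015 as described, 1546 at a minimum mean rate of 0.002 and 151 at 0.005, 1592 with at least 100 covered T positions and 404 with at least 1000, 421 with the rate reached in each control, 630 with 1 interval per gene, 1175 with summed counts and 500 with at least 10 conversions. With 1 control alone it was 742 without unlabeled replicate 1 and 1716 without unlabeled replicate 2. The share called in the held-out control was 21.3% as described, 41.5% with the libraries exchanged, 34.1% at 1000 covered T positions and 34.5% at a minimum rate of 0.005. The labeled median of members minus that of the others was 0.000614, and -0.00255 with the mean unlabeled rate subtracted. Leaving out each labeled replicate gave 0.000418 to 0.00118. The beta-binomial test called 18200 intervals, and 8787 and 3154 with at least 300 and 1000 covered T positions in every library, where fewer intervals were tested. Leaving out each library gave 17056 to 18632. For reads, edgeR called 0 intervals, DESeq2 22, and edgeR without a filter beyond 1 read 11, and leaving out each library gave 0. With the replicate number as a block, edgeR called 1895 intervals, 947 higher and 948 lower with S4U, and 61 and 66 of the 1015 members. Labeled replicate 3 is alone in its block in that fit, so the comparison rests on replicates 1 and 2 of each group. Deviations of same-numbered libraries from their group mean correlated at 0.771 and 0.624, and labeled replicate 3 correlated with unlabeled replicate 2 at 0.465. The deviations of the 2 unlabeled libraries are exact opposites, and those of the labeled libraries sum to 0. These correlations are therefore tied to each other and are not separate observations, and 2 pairs do not establish a pairing. The causes were not tested. Summed counts and either control alone place the rate of a named member within the spread of both controls by construction, so they are no check of it. Depth limits members of few conversions. The minimum of 10 conversions, the members without genome copies and the segment checks were chosen after seeing the data.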
